A study of Mus musculus with 19 samples.

Results

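The nuclear genes of the oxidative phosphorylation system were followed in the mouse dorsal root ganglion, which houses the cell bodies of the sensory neurons of the body. Members were taken by gene symbol (the Nduf, Sdh, Uqcr, Cox4 to Cox8 and Atp5 names) and by a mean of at least 10 counts over the 19 libraries, with Cox6a2 left out by the rule. This gave 81 genes of the 36682 in the table, with 37 in complex I, 4 in complex II, 8 in complex III, 15 in complex IV and 17 in complex V. Of 84 genes that matched the names, Cox7b2 and Cox6c2 fell under the minimum, with means of 2.68 and 4.32 counts. All 81 passed the filter on low counts that preceded the tests. Cox8b reached the minimum only through naive mice given AP20187, whose 4 libraries hold 199 of its 267 counts, with a mean of 4.53 counts in the other 15.

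Every mouse, controls included, was male and homozygous for the MaFIA (macrophage Fas-induced apoptosis) transgene. In this strain the Csf1r promoter drives a Fas fusion protein in macrophages and related myeloid cells, and the dimerizing drug AP20187 is given to kill those cells. AP20187 was given to 5 mice with DMM and 4 naive mice, and vehicle to 5 mice with DMM and 5 naive mice. DMM stands for surgical destabilization of the medial meniscus, a model of knee osteoarthritis, made 8 weeks before treatment, and naive mice were age-matched, with the age not given in the sources used here. AP20187 or vehicle was injected into the peritoneum daily for 5 days in a row, and the ganglia L3 to L5 of the operated side were pooled. Mice are named below by group and number.

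Oxidative phosphorylation makes most of the ATP of a neuron. Complexes I to IV pass electrons from NADH and succinate to oxygen, and all of them but complex II pump protons across the inner mitochondrial membrane. Complex V, the ATP synthase, lets protons back to make ATP. Outside complex II, the core of each complex is built from a few proteins, some encoded by mitochondrial DNA. Around it sit small supernumerary subunits that hold and stabilize the complex. Sensory neurons depend on this system for their long axons.

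Libraries held 60984830 to 74691396 counts. The neuronal genes Snap25, Isl1 and Rbfox3 were present in every library, Snap25 at 246 CPM or more (CPM, the count scaled by library total and TMM factor). Markers of other cells moved with the groups. The summed level of 10 neutrophil markers was 16757 to 28931 CPM in DMM with AP20187, 410 to 8097 CPM in DMM with vehicle, 8069 to 27559 CPM in naive with AP20187 and 880 to 2366 CPM in naive with vehicle. Summed over 10 pan-neuronal markers, the levels were 2052 to 8115 CPM, 5686 to 16687 CPM, 2745 to 13885 CPM and 8578 to 19104 CPM in the same order. Of 10 macrophage markers, 2 were higher in DMM and 4 in naive mice with AP20187, and 0 were lower, with summed levels of 261 to 1073, 170 to 625, 481 to 820 and 94.9 to 497 CPM in that order. All 8 proliferation markers were higher with AP20187 in DMM and 7 of 8 in naive mice. The part of these shifts in the differences below was not tested, and in whole ganglia fewer cells of a type and less RNA per cell cannot be told apart.

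In control ganglia the genes spanned a wide range of levels. Set per gene length, as FPKM (fragments per kilobase, scaled to sequencing depth), the highest in naive vehicle were large F1 subunits of ATP synthase, Atp5a1 at 231 ± 23.9 FPKM and Atp5b at 227 ± 26.5 FPKM (SD, n = 5). Cox6a1, Cox8a, Cox6b1 and Cox4i1, 4 of the nuclear subunits of cytochrome c oxidase found in most tissues, followed at 142 ± 28.5, 129 ± 20.9, 119 ± 35.5 and 114 ± 24.0 FPKM. The libraries of Atp5a1 and Atp5b overlapped, as did those of these 4 subunits, while every library of Atp5b lay above every library of Cox6a1, at 187 to 261 FPKM against 98.1 to 167 FPKM. Sdha, the flavoprotein of succinate dehydrogenase, stood at 83.0 ± 4.83 FPKM. Some supernumerary subunits of complex I were low by this measure, with Ndufb2 at 4.68 ± 0.617 FPKM and Ndufb1 at 5.77 ± 1.74 FPKM. Ranks by FPKM depend on the gene length used. Ndufb2 had 27.0 CPM in naive vehicle, above Ndufa12 at 19.2 CPM and 12.0 FPKM. Its reference transcript has 4371 bases for a coding sequence of 315. The tissue isoforms of complex IV were lowest, with Cox4i2 at 1.38 ± 1.10, Cox6b2 at 1.14 ± 0.261, Cox7a1 at 0.739 ± 0.469 and Cox8b at 0.0309 ± 0.0691 FPKM.

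The first comparison asked what AP20187 did in naive mice. A subset of the genes rose, nearly all of them small subunits. Ndufb1 of complex I was 8.13-fold higher with AP20187, and 4 subunits of ATP synthase followed, Atp5k at 7.16-fold, Atp5e 6.46-fold, Atp5md 6.27-fold and Atp5mpl 6.21-fold. None of the 20 members of over 200 codons passed as higher, and Ndufv1, the NADH-oxidizing flavoprotein of complex I, fell. In edgeR's quasi-likelihood test with Benjamini-Hochberg adjustment over 22778 genes, 18 of 81 members were higher (22.2%) and 1 was lower, against 8.61% higher and 2.57% lower among all genes tested. The 18 include Cox8b, which is a member only through the group where it is high; without it 17 of 80 were higher (21.2%). The median log2 fold change of the members was 0.60, with 63 of 81 above 0, beside a median of -0.07 over all genes. The members' median was 0.29 and 0.28 with the transcript and coding length offsets and 0.33 on log2(FPKM + 1), with 52, 52 and 55 of 81 above 0.

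In complex V, 5 of 17 genes were higher. Atp5k (subunit e of ATP synthase; ENSMUSG00000050856, chromosome 5, 108581110 to 108582314, GRCm39), which helps ATP synthase form dimers, was at 38.3, 60.0, 27.6 and 5.51 CPM in naive AP20187 mice 1, 3, 4 and 5. In naive vehicle mice 1 to 5 it was at 5.13, 3.48, 4.39, 5.27 and 4.66 CPM. Mice 1, 3 and 4 were high, and mouse 5 lay just above the highest vehicle library, so the groups did not overlap. The log2 fold change was 2.84 (SE 0.44, adjusted p 0.000904).

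Atp5e (subunit epsilon of the F1 stalk; ENSMUSG00000016252, chromosome 2, 174302865 to 174305898) was at 121.6, 188, 66.2 and 26.1 CPM with AP20187 and at 14.6, 7.17, 24.5, 19.6 and 11.9 CPM with vehicle. Again mouse 5 was the lowest of its group and only just outside the vehicle range. Its log2 fold change was 2.69 (SE 0.56, adjusted p 0.00606). The small membrane subunits Atp5md (ENSMUSG00000071528, chromosome 19, 47071903 to 47079086), at 2.65 (SE 0.52, adjusted p 0.00394), and Atp5mpl (ENSMUSG00000021290, chromosome 12, 111927809 to 111933411), at 2.63 (SE 0.44, adjusted p 0.00144), had the same order of AP20187 libraries (mice 3, 1, 4 and 5 from high to low). Atp5l, subunit g, was higher by 1.45 (SE 0.43, adjusted p 0.0376). The other 12 genes of complex V did not pass. Among them were the large F1 subunits Atp5a1 at -0.30 (SE 0.17, adjusted p 0.230) and Atp5b at -0.30 (SE 0.17, adjusted p 0.254), and the 3 genes of the membrane rotor ring, Atp5g1, Atp5g2 and Atp5g3, at -0.01, 0.60 and 0.20.

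In complex IV, 5 of 15 genes were higher, or 4 of 14 without Cox8b. Cox7c was at 151, 168, 87.2 and 31.3 CPM with AP20187 and at 30.1, 24.4, 40.5, 20.03 and 28.8 CPM with vehicle. The value of naive AP20187 mouse 5 fell within the vehicle range. Its log2 fold change was 1.93 (SE 0.39, adjusted p 0.00462). Cox7b rose by 2.15 (SE 0.39, adjusted p 0.00273) and Cox7a2, the general isoform of subunit VIIa, by 1.09 (SE 0.29, adjusted p 0.0210). The muscle isoforms Cox7a1 and Cox8b are described below. Cox4i1, the general isoform of subunit IV, had 1.02 (SE 0.38, adjusted p 0.0876) and did not pass.

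In complex III, 3 of 8 genes were higher, all of them small supernumerary subunits. On the log2 scale Uqcr10 rose by 1.59 (adjusted p 0.0354), Uqcrh, the hinge protein next to cytochrome c1, by 1.42 (adjusted p 0.0238) and Uqcr11 by 1.2 (adjusted p 0.0389). None of the 3 large subunits passed: Uqcrfs1, the Rieske iron-sulfur protein, had -0.49 (adjusted p 0.0610), and the core proteins Uqcrc2 and Uqcrc1 had -0.36 and -0.08 (adjusted p 0.201 and 0.765). All 4 genes of complex II, which has no small supernumerary subunits, stayed short of the threshold, with log2 fold changes of -0.33 for Sdha, -0.38 for Sdhb, 0.19 for Sdhc and -0.04 for Sdhd (adjusted p 0.223 to 0.926).

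In complex I the counts were as follows. Of its 30 supernumerary genes 5 were higher and 0 lower, with a median log2 fold change of 0.68. Of its 7 core genes 0 were higher and 1 was lower, with a median of -0.18. Ndufb1 (ENSMUSG00000113902, chromosome 12, 101934349 to 101943327) was at 67.7, 104, 42.6 and 7.09 CPM with AP20187 and at 7.25, 4.14, 9.49, 6.53 and 6.61 CPM with vehicle. As with Cox7c, mice 1, 3 and 4 were above every vehicle library and mouse 5 was not. For Ndufb1 the log2 fold change was 3.02 (SE 0.52, adjusted p 0.00193). Ndufa3, Ndufa1, Ndufa4 and Ndufc1 rose by 1.83, 1.53, 1.5 and 1.25 (adjusted p 0.00954, 0.0248, 0.0197 and 0.0334). Ndufa4 is counted here by its name, although the protein is now placed in complex IV. Ndufv1, whose values are given with the DMM groups below, fell by 0.64 (SE 0.19, adjusted p 0.0391).

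**Figure D1:**
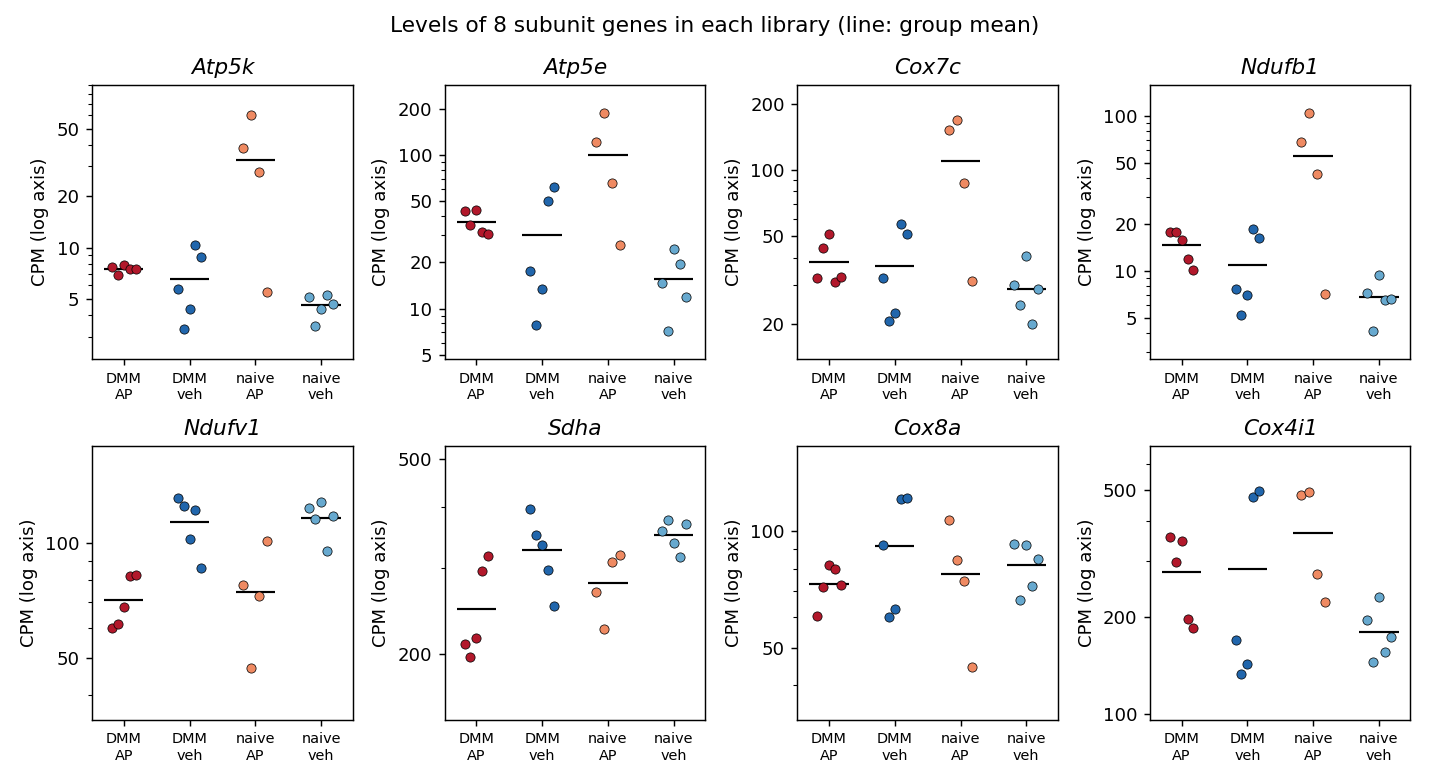
Each panel shows 1 gene, with CPM on a log axis against the 4 groups (AP, AP20187; veh, vehicle); points are libraries and lines are group means. In the naive AP20187 group Atp5k, Atp5e, Cox7c, Ndufb1 and Cox4i1 have 3 libraries above all naive vehicle libraries and the fourth near them. Ndufv1, Sdha and Cox8a do not. Of the former, Cox4i1 did not pass the test.

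The rise was seen in naive AP20187 mice 1, 3 and 4. Cell markers also differed within this group. In mice 1, 3, 4 and 5 the summed neutrophil markers were at 27008, 27559, 12350 and 8069 CPM. The pan-neuronal markers were at 8043, 2745, 11287 and 13885 CPM in the same order. The part of these differences in the rise was not tested. Without mouse 5, 37 members passed, 33 higher and 4 lower. Without mouse 1 or without mouse 3, 8 passed, and without naive vehicle mouse 1, 2 or 5 the number was 11, 8 and 12. The same 8 genes, Atp5e, Atp5k, Atp5md, Atp5mpl, Cox7b, Cox7c, Ndufa3 and Ndufb1, passed under all 19 alternative settings of this comparison. The balance of higher and lower calls moved with the scaling: it was 17 and 5 with an offset for transcript length, 18 and 4 with an offset for coding length, and 11 and 8 on log2(FPKM + 1). Counted by range alone, 8 members had every AP20187 library above every vehicle library (9.88%) and 0 had every library below, beside 9.39% and 6.15% of all genes tested, so the share above is near the background; without Cox8b it was 7 of 80 (8.75%). The same 3 libraries differed in how counts and FPKM relate. The count of a gene divided by its FPKM, as a median over genes relative to the library total, was 1.07 to 1.10 in mice 1, 3 and 4 and 0.982 to 0.993 in the 16 other libraries. Its part in the rise was not tested. Many small subunits have processed pseudogenes, near-identical copies elsewhere in the genome, and how the authors' counting shared reads between them was not tested.

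The risers share a short coding sequence, a feature the naming rule did not use. GENCODE M21 (GRCm38) gives a coding sequence for 80 of the 81 genes, from 52 to 727 codons with a median of 136.5, and none for Ndufb1. To show how small the products are, the whole coding sequences of 3 genes that rose and of Cox8a, which is as small and did not, are printed from that annotation. Capitals mark the start and stop codons, each sequence is spliced from the coding exons, and all 4 lie on the minus strand.
Atp5e, 52 codons, coding span chr2:174462503-174463996: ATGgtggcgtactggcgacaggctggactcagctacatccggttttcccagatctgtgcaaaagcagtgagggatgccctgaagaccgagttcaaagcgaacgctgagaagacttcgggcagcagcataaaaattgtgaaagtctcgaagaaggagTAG
Atp5md, 58 codons, coding span chr19:47085958-47086220: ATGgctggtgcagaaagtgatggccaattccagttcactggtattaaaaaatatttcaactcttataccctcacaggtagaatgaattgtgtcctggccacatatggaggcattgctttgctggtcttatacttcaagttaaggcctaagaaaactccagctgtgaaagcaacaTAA
Atp5k, 71 codons, coding span chr5:108433312-108434361: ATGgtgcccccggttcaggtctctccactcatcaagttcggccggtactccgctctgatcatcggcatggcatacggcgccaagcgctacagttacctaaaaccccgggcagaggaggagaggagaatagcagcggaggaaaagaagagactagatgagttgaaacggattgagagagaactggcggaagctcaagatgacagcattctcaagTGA
Cox8a, 69 codons, coding span chr19:7215389-7217512: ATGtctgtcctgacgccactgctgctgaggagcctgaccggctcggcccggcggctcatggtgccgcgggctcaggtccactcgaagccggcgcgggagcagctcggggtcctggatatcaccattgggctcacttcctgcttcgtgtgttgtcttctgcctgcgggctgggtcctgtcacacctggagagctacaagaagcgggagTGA

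Grouped by coding length, 16 of the 23 members of up to 100 codons (15 of 22 without Cox8b) were higher in naive mice, 1 of the 37 of over 100 and up to 200 codons and 0 of the 20 of over 200 codons. Among all genes tested of the same classes 23.7%, 11.8% and 8.78% were higher, beside 69.6%, 2.70% and 0% of the members. The medians of the log2 fold change were 1.5 (1.46 without Cox8b), 0.60 and -0.24. Across the 80 genes Spearman's rho of log2 fold change and coding length was -0.82 (-0.82 over the 79 without Cox8b), as a description, since the genes share their libraries. The same grouping of all genes tested gave medians of 0.55, 0.15 and -0.10 over 405, 2012 and 14313 genes, and rho was -0.17 over 16730 genes. In both sets the median was highest for the shortest genes. Cox8a, the general isoform of subunit VIII of cytochrome c oxidase, was an exception, at 107, 84.5, 74.2 and 44.5 CPM with AP20187 and 93.0, 66.4, 92.2, 72.4 and 85.0 CPM with vehicle. Its groups overlapped, and the fitted log2 difference was -0.08 (SE 0.24, adjusted p 0.854).

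**Figure D2:**
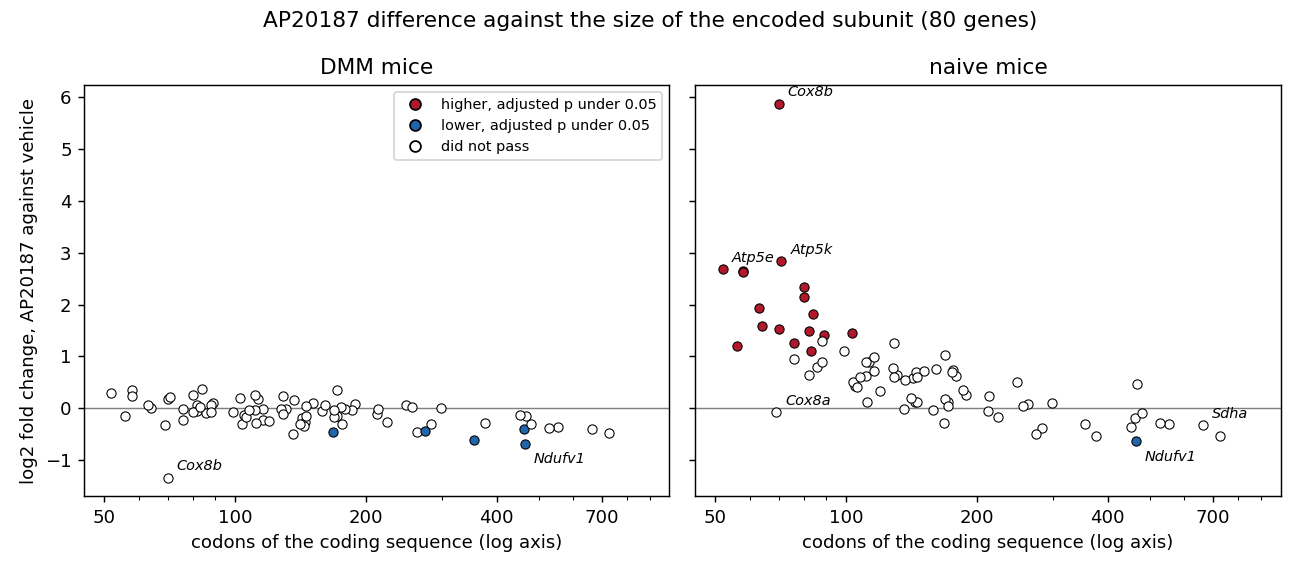
Each point is 1 of the 80 genes with a coding sequence, with codons on a log horizontal axis and the log2 fold change of AP20187 against vehicle on the vertical axis, in DMM (left) and naive mice (right); red and blue points passed as higher and lower. In naive mice the values fall from the shortest genes, with Atp5e and Atp5k at 2.69 and 2.84, to mostly below 0 among those of over 200 codons, with Cox8a at -0.08 as an exception among the short ones; Cox8b is a member only through the naive AP20187 libraries.

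A shift of the short members was also seen in libraries of other groups. Those of up to 100 codons include Cox8b, which is a member only through the naive AP20187 libraries. Measured as the median log2 CPM difference from the naive vehicle mean, the members of up to 100 codons stood at 1.80, 2.29, 1.06 and 0.06 in naive AP20187 mice 1, 3, 4 and 5. In DMM with vehicle they stood at 1.14 and 1.00 in mice 63 and 64, and at 0.30, -0.48 and -0.24 in mice 32, 33 and 34, so that mouse 63 lay above naive AP20187 mouse 4. In DMM with AP20187 they stood at 0.27 to 0.80, all above naive AP20187 mouse 5. Over all tested genes of up to 100 codons, DMM vehicle mice 63 and 64 stood at 0.80 and 0.85, and naive AP20187 mice 1, 3, 4 and 5 at 0.84, 0.92, 0.28 and 0.03. The members of over 200 codons kept to a narrower range of -0.44 to 0.53 over all 19 libraries.

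**Figure D3:**
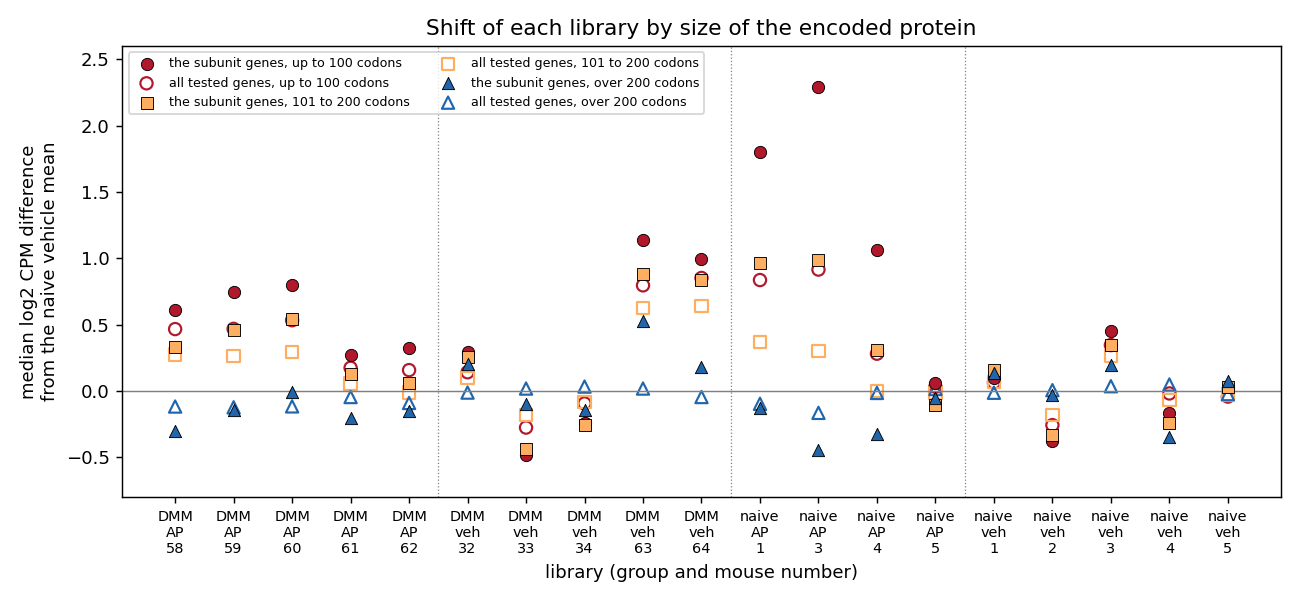
Each of the 19 libraries is a position on the horizontal axis, and the vertical axis is the median log2 CPM difference from the naive vehicle mean for 3 classes of coding length; filled symbols are the subunit genes and open symbols all genes tested. The subunit genes of up to 100 codons reach 2.29 in naive AP20187 mouse 3, stay near 0 in mouse 5 of that group, and reach 1.14 in DMM vehicle mouse 63. They include Cox8b, which is a member only through the naive AP20187 libraries.

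The next comparison asked the same of AP20187 in mice with DMM. Here no member rose and 5 fell, among them Ndufv1 and Ndufa10 of complex I, Uqcrfs1 of complex III and Atp5d of ATP synthase. In edgeR's test, 0 of 81 members were higher and 5 lower, beside 11.3% higher and 12.4% lower among all genes, and the members' shares lie below both. The median log2 fold change was -0.07, with 27 of 81 above 0, beside -0.10 over all genes. Its sign was not stable: over the alternatives it ran from -0.52 to 0.46 and turned in 7, and limma voom gave 0.46 with 66 of 81 above 0. By complex, I had 3 of 37 genes lower, III 1 of 8, V 1 of 17, and II and IV 0 of 4 and 15.

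Ndufv1 (ENSMUSG00000037916, chromosome 19, 4057384 to 4062759) had levels of 59.9, 61.5, 68.1, 82.2 and 82.8 CPM in AP20187 mice 58 to 62 of the DMM arm. With vehicle it was at 132, 125.5, 102.9, 122 and 86.2 CPM in mice 32, 33, 34, 63 and 64. All AP20187 libraries lay below all vehicle libraries, and the log2 fold change was -0.68 (SE 0.18, adjusted p 0.0126). In naive mice the same gene was at 77.7, 47.1, 72.9 and 101.2 CPM with AP20187 and at 123.9, 115.8, 128.6, 95.5 and 118 CPM with vehicle, where only mouse 5 overlapped. It was the single member that passed in both DMM and naive mice.

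Ndufa10, an accessory subunit of complex I, was at 75.2, 86.8, 89.4, 106 and 98.1 CPM with AP20187 and at 152, 138, 127.6, 169 and 113 CPM with vehicle, without overlap. Its log2 fold change was -0.62 (SE 0.18, adjusted p 0.0228). For Atp5d, subunit delta of the F1 stalk, and Uqcrfs1 the groups overlapped, with log2 fold changes of -0.47 (SE 0.15, adjusted p 0.0321) and -0.45 (SE 0.16, adjusted p 0.0433). Members with every AP20187 library below vehicle numbered 3 (3.70%) and above 0, beside 4.18% and 8.71% of all genes.

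The 8 small subunits that stood out in naive mice did not pass in DMM. Their log2 fold changes ran from 0.06 for Cox7c to 0.43 for Ndufb1, with adjusted p of 0.525 to 0.924. Atp5k was at 7.68, 6.93, 7.93, 7.44 and 7.52 CPM with AP20187 and at 5.69, 3.33, 4.37, 10.3 and 8.80 CPM with vehicle. The AP20187 libraries were close together, inside the spread of vehicle. Among vehicle, mice 63 and 64 were high and mice 32, 33 and 34 low.

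The count of calls moved with that split of the vehicle group. The mouse numbers are the only label that sets 63 and 64 apart from 32 to 34, and the labels give no batch. The summed level of 7 erythroid markers was 11580 and 26674 CPM in mice 63 and 64 and 1595, 2620 and 6876 CPM in mice 32, 33 and 34, and 5 of the 7 were lower and 0 higher with AP20187 in DMM. Their part in the split was not tested. Against mice 32, 33 and 34 only, 12 members passed, 8 higher and 4 lower, and against mice 63 and 64 only, 4 passed, all lower. The limma voom test with sample weights called 30, of which 23 were higher. Leaving out DMM AP20187 mouse 58, 59, 60 or 61 left 1, 2, 3 and 3 members, and leaving out DMM vehicle mouse 32 or 63 left 1 each. Ndufv1 lost its call in 1 of 21 alternatives, mice 63 and 64 only (adjusted p 0.181), while Uqcrfs1 lost it in 11, Atp5d in 7 and Ndufa10 in 4.

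**Figure D4:**
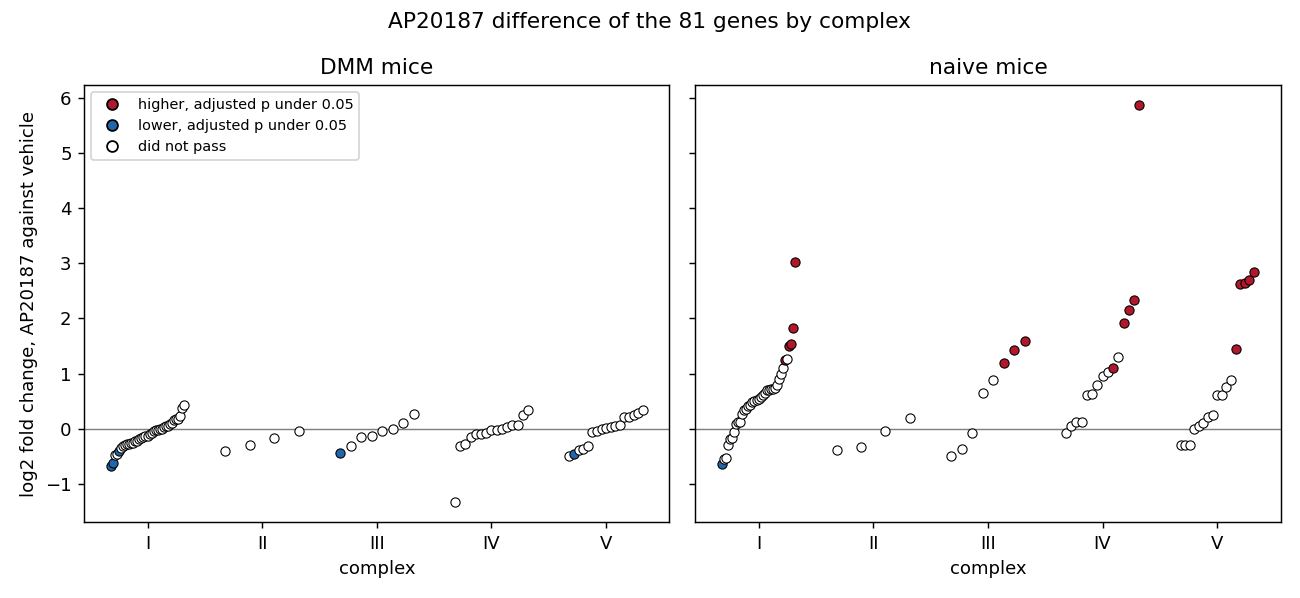
Each point is 1 of the 81 genes, placed by complex on the horizontal axis and by log2 fold change of AP20187 against vehicle on the vertical axis, in DMM (left) and naive mice (right); red and blue points passed as higher and lower, white points did not pass. In naive mice 18 genes of complexes I, III, IV and V passed as higher (17 without Cox8b, the highest point, which is a member only through the naive AP20187 libraries), and in DMM mice 5 passed as lower and 0 as higher.

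DMM was next compared with naive under the same injection. With vehicle, 0 members passed in edgeR's test, as did 0 of the 22778 genes tested (0% in each direction), with 1 member and 377 genes at an unadjusted p under 0.05. That member was Cox8b, which is a member only through the naive AP20187 libraries. Of the members, 75 of 81 were above 0, with a median log2 fold change of 0.35 beside 0.03 over all genes. With limma voom the median turned to -0.04, with 25 of 81 above 0, and with the transcript and coding length offsets it was 0.12 and 0.09. Over all alternatives the median ran from -0.09 to 0.88, and its sign turned in 2. By calls, limma voom, log2(FPKM + 1) and DESeq2 also called 0. With mice 63 and 64 as the only DMM vehicle libraries, 9 members passed, all higher. Atp5e, the member of complex V with the smallest p, was at 17.7, 7.80, 13.46, 50.7 and 61.7 CPM in DMM vehicle mice 32, 33, 34, 63 and 64, where mice 63 and 64 alone exceeded naive vehicle. Its log2 fold change was 0.96 (SE 0.52, adjusted p 1).

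With AP20187, 0 members were higher and 2 lower in DMM than in naive, beside 0.263% and 0.439% of all genes. These were Atp5k, at -2.13 (SE 0.43, adjusted p 0.0306), and Atp5mpl, at -1.97 (SE 0.43, adjusted p 0.0441). Both comparisons of naive AP20187 share its 4 libraries, and naive AP20187 mouse 5 lay below or within the range of DMM with AP20187 for Atp5k and Atp5mpl. The count was 6 without naive AP20187 mouse 5, and 0 without mouse 1 or 3 of that group or without DMM AP20187 mouse 58, 59, 60 or 62. Without naive AP20187 mouse 4 or DMM AP20187 mouse 61 it was 1.

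Whether the AP20187 difference itself differed between DMM and naive mice was tested by the interaction, the difference in DMM minus that in naive. No member passed in either direction, beside 0.0483% higher and 0.0659% lower among all genes. At an unadjusted p under 0.05 were 1748 of the 22778 genes tested and 25 of the 81 members. The smallest adjusted p was that of Atp5k, 0.120, with a log2 difference of -2.63 (SE 0.59), followed by Atp5mpl at -2.40 (SE 0.59, adjusted p 0.159) and Ndufb1 at -2.60 (SE 0.69, adjusted p 0.202). The naive rise of the small subunits is therefore not shown to differ from DMM at an adjusted p under 0.05. DESeq2 called 3 members and log2(FPKM + 1) 1, and 4 passed without naive AP20187 mouse 5, all lower.

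The muscle isoforms of complex IV were read apart from the other members. Cox8b, the isoform of subunit VIII in heart, skeletal muscle and brown fat, had 72, 48, 27 and 52 counts in naive AP20187 mice 1, 3, 4 and 5 and 0, 0, 0, 4 and 0 counts in naive vehicle. In DMM vehicle mouse 32 it had 36 counts, and in the other DMM libraries 0 to 12. Those AP20187 libraries made it a member, so its call in naive mice, included in the counts over all 81 genes and plotted with them, supports nothing. Cox7a1, the muscle isoform of subunit VIIa, was at 2.59, 3.26, 1.24 and 1.296 CPM with AP20187 and at 0.535, 0.451, 0.733, 0.0645 and 0.281 CPM with vehicle, without overlap (log2 fold change 2.34, SE 0.63, adjusted p 0.0235). In DMM it was at 1.06, 0.439, 1.13, 0.344 and 0.526 CPM with AP20187 (mice 58 to 62) and at 1.29, 0.194, 0.333, 1.19 and 0.692 CPM with vehicle (mice 32, 33, 34, 63 and 64). The groups overlapped in DMM.

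Here naive AP20187 mouse 5 did not stand apart. The summed level of 8 skeletal muscle markers was 2679, 2249, 1726 and 2290 CPM in naive AP20187 and 14.7 to 475 CPM in naive vehicle. In DMM vehicle it was 2061 CPM in mouse 32 and 17.4 to 261 CPM in the other 4, and in DMM with AP20187 19.3 to 157 CPM. Of the 8 markers 4 were higher and 0 lower with AP20187 in naive mice, and 0 were higher and 2 lower in DMM. Of 5 brown fat markers, 3 were higher and 0 lower with AP20187 in DMM (median log2 fold change 2.33) and 1 was higher and 0 lower in naive mice (median -0.08). Their summed level was 31.9 to 48.2 CPM in DMM with AP20187, 18.4 to 30.8 CPM in DMM with vehicle, 27.8 to 30.6 CPM in naive with AP20187 and 23.1 to 33.5 CPM in naive with vehicle. Ucp1, which defines brown fat, was at 0.167 to 0.365 CPM in DMM with AP20187, 0 in all DMM vehicle libraries, and 0 to 0.243 CPM in naive mice. The part of muscle or brown fat RNA in the members was not tested. The isoform Cox4i2, which responds to low oxygen, and Cox6b2, the testis isoform, did not pass in any of these contrasts. Their log2 fold changes in naive mice were 0.04 (adjusted p 0.970) and 1.303 (adjusted p 0.0655).

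**Figure D5:**
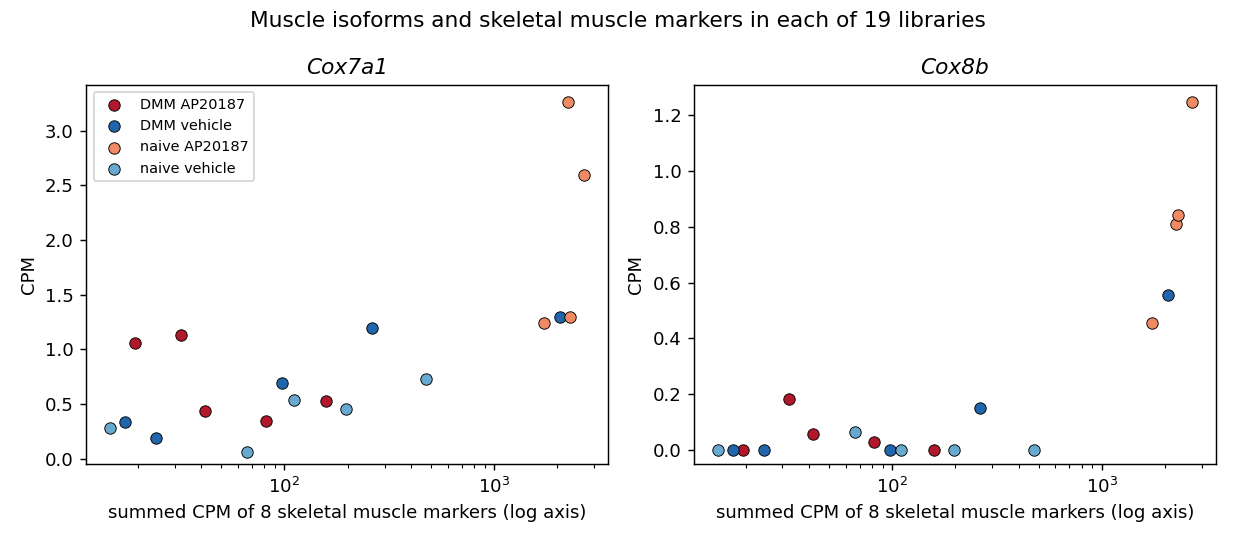
Each point is 1 library, with the summed CPM of 8 skeletal muscle markers on a log horizontal axis and the CPM of Cox7a1 (left) or Cox8b (right) on the vertical axis. The 4 naive AP20187 libraries and DMM vehicle mouse 32 lie at 1726 CPM of muscle markers or more; their Cox8b values are 0.454 to 1.24 CPM, and those of the 4 naive AP20187 libraries are what made Cox8b a member.

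Other genes of mitochondrial energy supply gave a background to the members. The 13 proteins encoded by mitochondrial DNA, which are core subunits of complexes I, III, IV and V, were all above 0 under AP20187. Of them 6 were higher and 0 lower in DMM, with a median log2 fold change of 0.68, and 4 were higher and 0 lower in naive mice, with a median of 0.63. Among these, mt-Nd3, a small complex I subunit, had 1.88 in naive mice (adjusted p 0.00544). The 16 genes of the TCA cycle and pyruvate dehydrogenase, which supply NADH and succinate, had 3 lower (18.8%) in DMM (Dlat, Pdhb and Pdha1, median -0.36) and 0 of either direction in naive mice (median -0.21). Of 46 tested assembly factors, which build the complexes without being part of them, 0 were higher and 5 lower (10.9%) in DMM, and 4 were higher (8.70%) and 2 lower (4.35%) in naive mice. Against the 12.4% lower in DMM and the 8.61% higher and 2.57% lower in naive mice among all genes, the first 2 shares are near the background. Those higher in naive mice were Uqcc2, Cox17, Pet100 and Sco2, at 1.78, 1.23, 1.52 and 1.13, and those lower were Cox11 and Acad9, at -0.87 and -0.65.

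The same background, 11.3% higher and 12.4% lower in DMM and 8.61% and 2.57% in naive mice, holds for the other lists. Structural or carrier genes outside the naming rule, such as Cyc1 and Cycs, had 0 higher and 2 lower of 6 in DMM (Higd1a and Dmac2l) and 0 called in naive mice. Of 11 import, porin and carrier genes 4 were lower (36.4%) in DMM, with the ADP/ATP carrier Slc25a4 at -0.98 (adjusted p 0.00265), and 0 were called in naive mice. Glycolysis, the other source of ATP, had 4 entries higher and 5 lower of 17 (16 gene symbols; 23.5% and 29.4%) in DMM and 3 higher (17.6%) in naive mice. Hk2 rose by 1.40 and 1.53 in the 2 contrasts, and the neuronal enolase Eno2 fell by 1.38 in DMM. Mitochondrial ribosomal proteins had 0 higher and 4 lower of 78 in DMM (5.13%), and 3 higher in naive mice (3.85%), both under the background. Cytosolic ribosomal proteins, which are also encoded by short genes, had 1 higher and 0 lower of 86 in DMM and 59 higher and 0 lower in naive mice, with a median of 1.45.

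The transcription factors that act on these genes were read beside them. Of 15 regulators of mitochondrial gene expression 4 were higher in DMM with AP20187, namely Nrf1 at 0.65 (adjusted p 0.0192), Gabpa at 0.64 (adjusted p 0.00507), Gabpb1 at 0.72 (adjusted p 0.00898) and the mitochondrial DNA polymerase Polg at 0.66 (adjusted p 0.00209). In naive mice 1 was higher, Gabpb1 at 0.63 (adjusted p 0.0369). The coactivator Ppargc1a had -0.61 in DMM and -0.53 in naive mice and did not pass (adjusted p 0.135 and 0.262).

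Promoters were searched for the letters that 3 of these factors are known to bind, on both strands, in 250 bases before and 50 after the start (RefSeq, GRCm38.p6). Of the members 68 of 81 were matched. The NRF1 motif GCATGCGC was in 14.7% of the members and in 3.05% of all 27025 genes with a promoter in the table. The GABP motif ACCGGAAG was in 10.3% and 2.6%, and the YY1 motif AAGATGGC in 14.7% and 3.19%. NRF1's motif was present in 3 of the 17 matched genes that rose in naive mice, Atp5k, Atp5l and Uqcr11, and in 7 matched members that did not, among them Sdhb and Cox6a1. To show the motif in a gene that rose and in a gene that did not, the 120 bases before the start of Atp5k and of Sdhb are printed 5′ to 3′ on the gene's strand, with the motif in capitals. In Atp5k 2 copies on opposite strands overlap, which gives a longer run of capitals.
Atp5k, chr5:108434400-108434519, minus strand: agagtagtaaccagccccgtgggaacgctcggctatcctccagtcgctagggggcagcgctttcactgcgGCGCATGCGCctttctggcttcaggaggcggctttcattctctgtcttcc
Sdhb, chr4:140961151-140961270, plus strand: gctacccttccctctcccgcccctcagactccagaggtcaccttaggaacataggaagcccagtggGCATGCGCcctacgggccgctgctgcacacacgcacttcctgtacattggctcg

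Sdhb, the iron-sulfur subunit of succinate dehydrogenase, was at 98.4, 77.0, 56.4 and 103 CPM in naive AP20187 and at 123.5, 90.2, 141, 79.1 and 111 CPM in naive vehicle, and the groups overlapped. Atp5k and Sdhb hold the same letters, with log2 fold changes of 2.84 and -0.38 in naive mice.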

How the data were processed

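Poly(A) RNA of pooled L3 to L5 ganglia was sequenced as stranded libraries, 1 per mouse, per the labels' protocols. The authors deposited read counts and FPKM per gene in 1 table. cutadapt, HISAT2 and StringTie and the build GRCm39 are named in the submitters' processing notes, without versions, and the options are not given in the sources used here. Whether the deposited counts are tallies of reads or were derived from StringTie's coverage is not given either, and its effect on short genes was not tested. Counts are the unit tested, and the deposited FPKM served for levels between genes and for 1 alternative, limma on log2(FPKM + 1).

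Genes were kept by edgeR's filterByExpr with a minimum count of 10, which left 22778 of 36682. Counts were scaled by TMM and tested with edgeR 4.0.16 (R 4.3.3) in 1 quasi-likelihood fit of the 4 groups, with 15 residual degrees of freedom and Benjamini-Hochberg adjustment over all genes tested. A gene was called at an adjusted p under 0.05. limma 3.58.1 and DESeq2 1.42.0 served for alternatives, and figures were drawn with matplotlib 3.10.9. The code was tested on simulated data of the naive comparison, where 57% of 4-fold and 11% of 2-fold changes were recovered. A gene that did not pass is therefore not shown to be unchanged. Gene lengths came from GENCODE M21 (GRCm38), matched by ID for 93.8% of genes, and promoters from RefSeq (GRCm38.p6).

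The members and gene lists were chosen with earlier results of these data known. Named genes were, per complex and comparison, the called member with the largest rise and fall (or else the smallest p), the highest and lowest by FPKM, the Sdh genes and the isoforms; other named members were chosen after their values were seen, and 1 called member is not reported here by name. Naive AP20187 and vehicle mice share numbers. The same-number correlations of deviations were 0.023, 0.301, -0.082 and 0.183, and the different-number ones ran from -0.262 to 0.199. Whether the numbers pair the mice is not known, and the main fit does not pair them.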

Additional observations from a re-analysis of the deposited data

Results flagged for a closer look

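Within groups of 4 or 5 libraries, 1 library was far from the others in 4 of 128 tests of a gene's level in a group, where chance gives about 1 in 20. Ndufa4 was low in naive vehicle mouse 2, at 74.3 CPM. Sdhb was high in DMM AP20187 mouse 60, at 111.6 CPM. Cox8b, the muscle isoform, was high in DMM vehicle mouse 32, at 0.555 CPM, where the skeletal muscle markers were also high, and at 0.0645 CPM in naive vehicle mouse 4, the single library of that group with any count (4 counts), so that it had to stand apart by construction.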

How the results depend on the processing

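Leaving out 1 library gave 1 to 7 called members for AP20187 against vehicle in DMM, 8 to 37 in naive mice, 0 to 0 for DMM against naive with vehicle, 0 to 6 with AP20187, and 0 to 4 for the interaction. For DMM, where 5 members were called, DESeq2 size factors and no filter gave 3, no TMM and the transcript length offset 8, only the groups compared 2, limma voom 30 (23 higher) and vehicle mice 32, 33 and 34 only 12 (8 higher). In these last 2 settings the majority turned: Cox4i1 had 0.79 and 0.89 and Uqcrq 0.95 and 0.93, and Uqcr10 had 0.94 with voom. In naive mice DESeq2 gave 30 calls in place of 19. DMM against naive with vehicle gave 9 with mice 63 and 64 only. With AP20187 the count of 2 became 6 with the transcript length offset or DESeq2, 4 with the coding length offset, 1 without a filter or on log2(FPKM + 1), and 0 with only the groups compared. The interaction gave 1 on log2(FPKM + 1), 3 with DESeq2 and 5 with mice 63 and 64 only. The cause of these changes was not tested. The coding length offset was added after seeing the data. With the mouse number as a replicate block in naive mice, 13 members were called, all higher, although it is not known whether the numbers pair the mice.

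Of 502 alternative values for called genes, 358 kept their call and direction and 144 kept the direction without passing. Of 3018 for uncalled genes, 72 gained a call in the same direction, 5 were called in the other direction, and 280 changed sign without a call. Genes of few counts, Cox8b above all, are limited by depth.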
